A study of Mus musculus with 6 samples.

Results

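The 10 genes described here are Cd3d, Cd3e, Cd3g, Cd247, Trbc2, Cd4, Cd8a, Cd8b1, Lck and Cd5. These genes encode parts of the antigen receptor of T cells, its co-receptors, its first kinase and a brake on it. They were taken by symbol from the unfiltered table of raw counts, as 10 of its 43280 rows, and were listed by name with their counts in these libraries already known. Their counts and fold changes are therefore given as a description of these libraries, and nothing is supported with them. RNA had been sequenced from submandibular glands (SMGs), a major salivary gland, of female mice. Of the 6 libraries 3 were labelled WT and 3 DKO, and the labels number those of each group 1, 4 and 5. DKO mice carry inactivated copies of both Hs3st3a1 and Hs3st3b1, heparan sulfate 3-O-sulfotransferases that add a sulfate to the sugar chains of proteoglycans. The study describes a frameshift deletion in exon 1 of Hs3st3a1, made by a zinc finger nuclease, on an allele whose Hs3st3b1 carries a LacZ cassette. Both changes are in the germline, so every cell type of the gland carries them, the immune cells included. The study describes the glands as adult and the mice as littermates, and neither an age nor which founder line or litter each library came from is given in the sources used here.

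An alpha-beta T cell reads peptides held by MHC molecules through a receptor whose variable chains are fixed to constant regions such as the one encoded by Trbc2. That receptor cannot signal by itself. The CD3 gamma, delta and epsilon chains and the zeta chain, encoded by Cd247, carry the signal into the cell, while CD4 or CD8 grips the MHC molecule and brings the kinase Lck to the receptor. In salivary glands, T cells are a minor population that lies among ducts and acini, part of it as long-lived resident memory cells.

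Total counts ranged from 23674258 to 29611975 per library. The targeted genes were examined first. Counts of a gene are listed here in the order of libraries 1, 4 and 5, the 3 libraries under the WT label before the 3 under the DKO label. For Hs3st3a1 they were 15, 11 and 15 against 11, 8 and 13, and Hs3st3b1 had 173, 203 and 261 against 255, 120 and 189. Neither row was lower in the libraries labelled DKO beyond the spread between replicates (log2 fold changes of -0.22 and -0.04, DESeq2 adjusted p = 0.947 and 0.976), although a sum over a whole gene can hide both a short deletion and a truncated transcript. Groups are therefore named by their labels, and every direction below rests on those labels. The libraries labelled WT 5 and DKO 1 stood apart in Muc19, a gel mucin of the sublingual gland, with 62150 and 3906 counts against 27 to 120 in the other 4. A share of the neighbouring gland in those dissections was not tested, and sums and counts of calls are also given without both libraries below. The salivary epithelium markers that the labelled tissue should hold were abundant in every library, led by Spt1 with 8386042 to 11647503 counts and Klk1, a kallikrein of the ducts, with 142648 to 204126. Of these 10 markers, 2 were called, Egf lower and Aqp5 higher in the libraries labelled DKO (DESeq2 adjusted p = 1.60e-05 and 0.0165). Over all 18606 rows tested, 2.9% were called in either direction. With edgeR and with limma-voom 0 of the 10 were called, with 4 and 4 at an unadjusted p under 0.05, and without WT 5 and DKO 1 together only Egf was.

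Transcripts of the 10 T cell genes were rare in every library and rarer in those labelled DKO. Their summed counts came to 410, 89 and 230 under the WT label, and to 34, 28 and 24 under the DKO label. No single gene exceeded 74 counts in any library. As CPM, which scale each library to the same total, the sums were 17.3, 3.30 and 8.42 under the WT label and 1.20, 0.946 and 0.929 under the DKO label. The lowest of the WT sums thus stood 2.74 times above the highest of the DKO sums on the CPM scale, and 95% Poisson intervals of these sums, which cover counting error only, separated every WT library from every DKO library. After division by DESeq2 size factors, the sums averaged 233 ± 161 normalized counts (SD, n = 3) under the WT label and 29.7 ± 2.33 (SD, n = 3) under the DKO label, a ratio of 7.83 that fell to 4.93 without the library labelled WT 1. The spread lay mostly within WT, where the highest library held 4.66 times the normalized sum of the lowest, against 1.17 times among the DKO libraries. Without the libraries labelled WT 5 and DKO 1, the summed counts were 410 and 89 against 28 and 24. In a bulk sample, fewer T cells and less of these transcripts per T cell cannot be told apart.

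**Figure D1:**
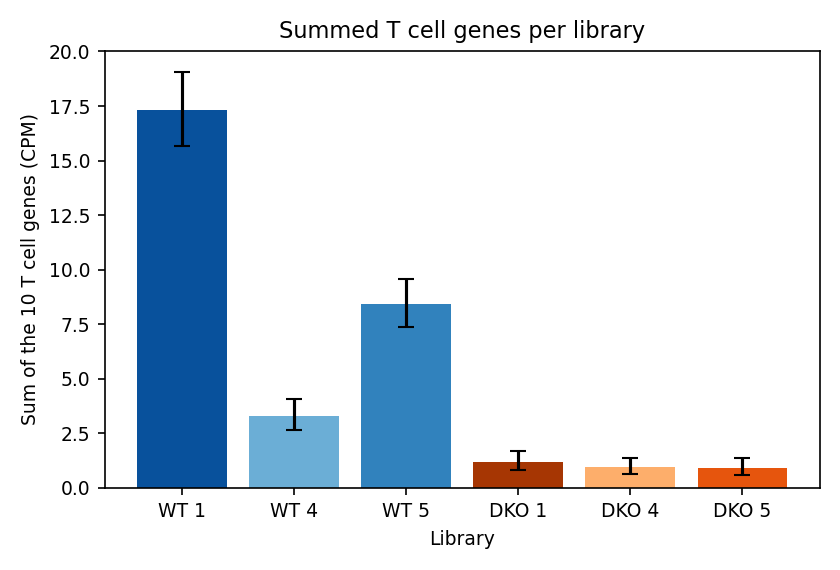
Bars give the summed counts of the 10 T cell genes scaled to the library total (CPM) in each of the 6 libraries, with 95% Poisson intervals that cover counting error only. The 3 libraries labelled WT stood at 17.3, 3.30 and 8.42 CPM, and the 3 labelled DKO at 1.20, 0.946 and 0.929 CPM.

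Every library labelled WT held reads of 10 of the 10 genes, and each of the 3 libraries labelled DKO held reads of 7 with 3 genes at 0. Which genes were at 0 differed among the DKO libraries, except that Cd8a was at 0 in each of them. The order of the WT libraries was the same for 10 of the 10 genes, with WT 1 highest and WT 4 lowest. In 8 of the 10 genes every library labelled WT lay above every library labelled DKO in normalized counts. That arrangement was found in 10.5% of the 18606 rows tested, and in 11.3% of the 3412 rows whose mean lay within the range of the 10 genes (5.52 to 28.0 normalized counts). Since these genes were listed with their counts known, nothing is read from that difference in share.

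**Figure D2:**
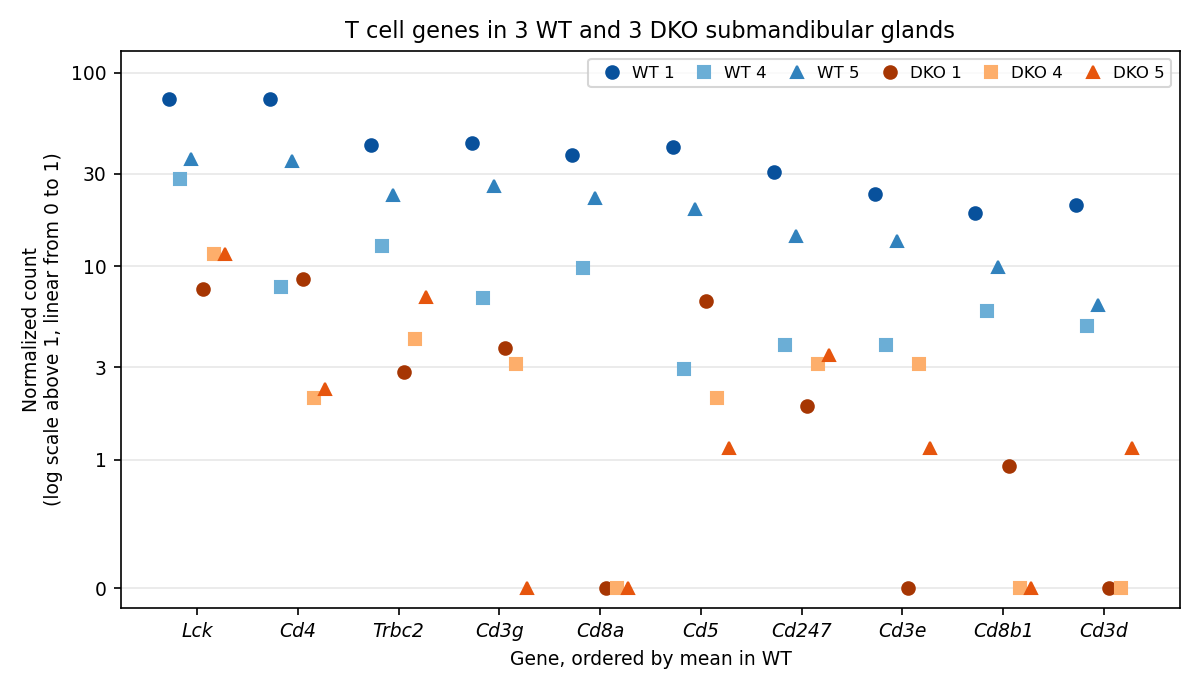
Each point is the normalized count of 1 gene in 1 library (log scale above 1, linear from 0 to 1), with genes ordered by their mean in the libraries labelled WT. The WT points lie above the DKO points for 8 genes, the groups overlap for Cd4 and Cd5, and Cd8a is at 0 in the 3 libraries labelled DKO.

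The signalling chains of the receptor were examined by gene. Cd3g, the gamma chain, had 44, 7 and 29 counts under the WT label and 4, 3 and 0 under the DKO label. Cd3e, the epsilon chain that pairs with both gamma and delta, had 24, 4 and 15 counts against 0, 3 and 1, so that WT 4 lay only 1 count above DKO 4. Cd3d, the delta chain, had 21, 5 and 7 counts against 0, 0 and 1. All 3 CD3 genes kept the groups apart, and the margin was narrowest for Cd3e. Cd247, the zeta chain that also serves Fc receptors of natural killer cells, had 31, 4 and 16 counts against 2, 3 and 3, and again WT 4 was close to the DKO libraries. In normalized counts, Cd3g averaged 25.4 ± 18.4 against 2.31 ± 2.03 (SD, n = 3), Cd247 16.3 ± 13.5 against 2.83 ± 0.824, Cd3e 13.7 ± 9.92 against 1.43 ± 1.59 and Cd3d 10.6 ± 8.80 against 0.384 ± 0.666. The fitted log2 fold changes, DKO over WT, were -3.42 (SE 0.91) for Cd3g, -2.54 (SE 0.92) for Cd247, -3.28 (SE 1.13) for Cd3e and -4.83 (SE 1.51) for Cd3d. For Cd3d the DKO libraries held 1 count in all against 33, a rate ratio of 30.2 that counting error alone leaves between 5.05 and 1227.

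The 3 CD3 genes are neighbours in the genome, and their promoters are shown because the genes differed in the same direction. In GRCm38, Cd3g spans 44969572 to 44980431 of chromosome 9 (minus strand), and Cd3d lies 1354 bp from it on the plus strand, from 44981786 to 44987339. Cd3e follows 11.4 kb beyond Cd3d on the minus strand, from 44998740 to 45009627. Cd247 lies apart, on the plus strand of chromosome 1 from 165788681 to 165877277. Because the libraries were unstranded, reads of exons where Cd3e overlaps Gm48719, and Cd247 overlaps Pou2f1, on the opposite strand cannot be separated. Gm16565 overlaps exons of Cd247 on the same strand, so strand could not separate those reads either. The RefSeq promoters of GRCm38.p6 span 250 bases before to 50 bases after a gene's start. Capitals mark AGGAAG, a core sequence bound by ETS family factors, and the E boxes CAGCTG and CAGGTG, which E proteins bind, searched on both strands with no overlap among the matches.
Cd3g, chr9:44980382-44980681, minus strand: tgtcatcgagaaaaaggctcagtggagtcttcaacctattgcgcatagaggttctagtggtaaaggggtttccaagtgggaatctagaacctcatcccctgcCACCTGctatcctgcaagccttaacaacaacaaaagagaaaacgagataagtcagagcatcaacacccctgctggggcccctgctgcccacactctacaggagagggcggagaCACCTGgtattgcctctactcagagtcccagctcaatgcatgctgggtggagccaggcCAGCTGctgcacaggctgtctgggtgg
Cd3d, chr9:44981536-44981835, plus strand: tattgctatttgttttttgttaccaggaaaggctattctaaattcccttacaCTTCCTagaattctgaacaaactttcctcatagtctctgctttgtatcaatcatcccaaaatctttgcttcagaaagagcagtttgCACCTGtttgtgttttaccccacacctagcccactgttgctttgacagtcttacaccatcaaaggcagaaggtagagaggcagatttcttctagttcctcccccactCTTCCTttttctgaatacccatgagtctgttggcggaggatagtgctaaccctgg
Cd3e, chr9:45009562-45009861, minus strand: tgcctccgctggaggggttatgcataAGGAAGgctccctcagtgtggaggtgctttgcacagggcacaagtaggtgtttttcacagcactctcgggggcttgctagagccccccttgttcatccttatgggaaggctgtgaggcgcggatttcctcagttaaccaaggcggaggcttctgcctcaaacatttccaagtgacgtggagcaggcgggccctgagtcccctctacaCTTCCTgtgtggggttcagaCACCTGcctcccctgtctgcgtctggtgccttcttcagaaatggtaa
The Cd3d and Cd3e windows each held 2 matches to AGGAAG and 1 to CAGGTG, and the Cd3g window held 2 matches to CAGGTG and 1 to CAGCTG. Promoters were found for 7 of the 10 genes, 8 windows in all. AGGAAG occurred in 6 of these 8 against 35.4% of all 32851 promoters, CAGGTG in 7 against 20.2%, and CAGCTG in 2 against 16.3%. By gene, AGGAAG was found in 5 of the 7, CAGGTG in 6 and CAGCTG in 2. Nothing is read from these shares. A match is a stretch of letters and not a shown binding site.

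Trbc2, the second constant region of the receptor beta chain, lies on chromosome 6 from 41546730 to 41548352 on the plus strand. It had 43, 13 and 26 counts under the WT label and 3, 4 and 6 under the DKO label. The groups were apart, the nearest libraries being WT 4 at 12.7 normalized counts and DKO 5 at 6.92. Its normalized counts averaged 26.2 ± 15.1 against 4.65 ± 2.08 (SD, n = 3), and its log2 fold change was -2.51 (SE 0.71). Trbc1, the other beta constant region, lies 6.85 kb away and its transcript was identical to that of Trbc2 at 606 of 687 aligned bases (88.2%), so reads could have been split between both rows or dropped. Trbc1 itself had 48, 17 and 39 counts under the WT label against 21, 3 and 12 under the DKO label, with the library labelled DKO 1 above WT 4 (log2 fold change -1.42, SE 0.62, DESeq2 adjusted p = 0.235). Added together, which no split between the rows can change, the beta constant regions had 91, 30 and 65 counts against 24, 7 and 18. Each WT library again lay above each DKO library, at 59.2 ± 30.4 against 16.9 ± 8.40 normalized counts (SD, n = 3), a ratio of 3.49. Trbc2 took 44.1% of the beta constant region counts pooled over the WT libraries (82 of 186, exact 95% binomial interval 36.8 to 51.5%). Over the DKO libraries it took 26.5% (13 of 49, interval 14.9 to 41.1%). By library its share was 47.3%, 43.3% and 40.0% under the WT label. Under the DKO label it was 12.5% (3 of 24), 57.1% (4 of 7) and 33.3% (6 of 18). The pooled intervals overlap but leave out this spread between libraries, and a difference in share was not tested.

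Among the co-receptors, the CD8 chains were nearly absent from the libraries labelled DKO. Cd8a, the alpha chain present in both the alpha-alpha and the alpha-beta form of CD8, had 38, 10 and 25 counts under the WT label and 0 in each of the 3 libraries labelled DKO. A count of 0 allows up to 3 counts in a library, here 0.101 to 0.116 CPM. The mean of Cd8a in the libraries labelled WT (23.3 ± 13.9 normalized counts, SD, n = 3) was 7.39 times that limit of 3 counts per library. This ratio leaves out the spread among the WT libraries, of which WT 4 held only 9.78 normalized counts. The fitted log2 fold change of Cd8a, -6.92 (SE 1.37), depends on how the fit treats zeros and is no bound. Cd8b1, the beta chain that conventional cytotoxic T cells add, had 19, 6 and 11 counts under the WT label against 1, 0 and 0 under the DKO label. Its normalized counts averaged 11.5 ± 6.62 against 0.316 ± 0.548 (SD, n = 3). The pooled counts of Cd8b1, 36 against 1, gave a rate ratio of 32.9 with a counting interval from 5.54 to 1335, and the fitted log2 fold change was -4.94 (SE 1.46). Both CD8 genes separated the groups completely. Cd8a took 66.7%, 62.5% and 69.4% of the counts of both CD8 chains in the libraries labelled WT 1, 4 and 5, of which the libraries held 57, 16 and 36, and the 1 CD8 count of the DKO libraries gives no share.

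Both chains lie on the plus strand of chromosome 6, Cd8b1 from 71322788 to 71337494 and Cd8a from 71373427 to 71379173, with 35.9 kb between them. The promoter of Cd8a is shown as that of the gene with no read in any library labelled DKO, with the same motifs in capitals.
Cd8a, chr6:71373177-71373476, plus strand: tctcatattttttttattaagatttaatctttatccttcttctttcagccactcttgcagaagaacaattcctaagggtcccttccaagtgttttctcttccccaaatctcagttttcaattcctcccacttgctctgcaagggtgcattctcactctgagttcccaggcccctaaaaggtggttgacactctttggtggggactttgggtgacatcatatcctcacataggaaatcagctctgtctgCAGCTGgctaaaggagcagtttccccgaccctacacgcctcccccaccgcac
Its only match was 1 CAGCTG, which begins at base 249 of the window and runs across the gene's start, and AGGAAG and CAGGTG are not in this window. At least 1 of CAGCTG and CAGGTG was found in 8 of the 8 promoters, which belong to 7 of these genes, and in 32.9% of all promoters. Nothing is read from this difference in share.

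Cd4, the co-receptor of helper and regulatory T cells that macrophages and dendritic cells can also carry, lies at 124864692 to 124888221 of chromosome 6 (minus strand). It had 74, 8 and 39 counts under the WT label and 9, 2 and 2 under the DKO label. The groups overlapped, because the library labelled DKO 1 (8.54 normalized counts) lay above WT 4 (7.83). Its normalized counts averaged 38.7 ± 32.9 against 4.31 ± 3.66 (SD, n = 3), with a log2 fold change of -3.14 (SE 0.80). The balance of the co-receptors was compared as the share of Cd8a in the counts of Cd8a and Cd4. In the libraries labelled WT it was 33.9% (38 of 112, exact 95% binomial interval 25.3 to 43.5%), 55.6% (10 of 18, interval 30.8 to 78.5%) and 39.1% (25 of 64, interval 27.1 to 52.1%), and these intervals overlapped. Pooled, it was 37.6% in the libraries labelled WT (73 of 194, interval 30.8 to 44.9%) and 0 of 13 in those labelled DKO, which allows a share of up to 23.1%. Of those 13 counts 9 came from the library labelled DKO 1, and the other 2 libraries held 2 each, too few to limit a share.

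Lck, the kinase that CD4 and CD8 bring to the receptor, was the most steadily detected of the 10 genes. It had 74, 29 and 40 counts under the WT label and 8, 11 and 10 under the DKO label, and the groups were well apart. Its normalized counts averaged 45.8 ± 24.0 against 10.2 ± 2.27 (SD, n = 3), and its log2 fold change of -2.17 (SE 0.52) was the smallest of the 10 with the smallest standard error. Lck is also used by natural killer cells. It spans 129548344 to 129573641 of chromosome 4 (minus strand) and contains the microRNA gene Mir8119 on the same strand, whose reads cannot be separated from its own. Cd5, a scavenger-type receptor that dampens receptor signalling and is found on some B cells too, is at 10717116 to 10739002 of chromosome 19 (minus strand). It had 42, 3 and 22 counts under the WT label against 7, 2 and 1 under the DKO label. The library labelled WT 4 fell inside the range of the DKO libraries, and Cd5 averaged 21.4 ± 19.4 against 3.29 ± 2.94 normalized counts (SD, n = 3) with a log2 fold change of -2.67 (SE 0.95).

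Compared per kilobase of exon, as CPM per kb, the level of Trbc2 was the highest in the libraries labelled WT at 1.57 ± 0.978 (SD, n = 3), followed by Lck at 0.645 ± 0.372 and Cd4 at 0.401 ± 0.353. Exon length was the union of all exons annotated for a gene in GENCODE M21, from 692 bp for Trbc2 to 5329 bp for Cd247. The annotation used for counting is not given, and the order depends on these lengths. Trbc2 ranked first and Lck second in each of the 3 WT libraries. Cd3g, Cd8b1, Cd8a and Cd3d followed with mean levels of 0.324, 0.321, 0.265 and 0.244 CPM per kb, and Cd5, Cd3e and Cd247 came last at 0.182, 0.140 and 0.128. No gap between neighbours in this order exceeded the larger of their SDs, the widest being that between Trbc2 and Lck at 0.941 of it, so the order below the second place is not settled by these libraries. In the libraries labelled DKO the mean levels were 0.228 CPM per kb for Trbc2, 0.119 for Lck, 0.0383 for Cd4 and at most 0.0248 for the other 7 genes.

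**Figure D3:**
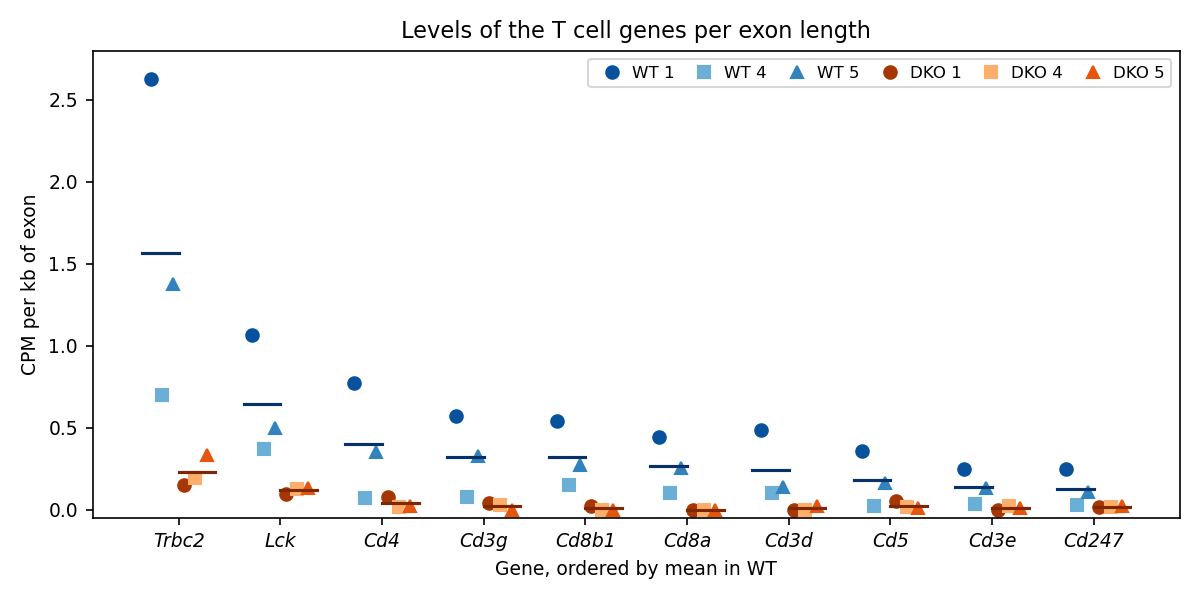
Each point is the level of 1 gene in 1 library as CPM per kb of exon (linear axis), and horizontal lines give the group means, with genes ordered by the WT mean. Trbc2 and Lck lead in the libraries labelled WT, with means of 1.57 and 0.645, and remain the leading pair in those labelled DKO at 0.228 and 0.119.

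The 10 genes were next read in the DESeq2 fit of the whole table, in which a row was called at an adjusted p-value under 0.05. All 10 passed the filter of 10 counts summed over the 6 libraries, and 6 of them did so through the libraries labelled WT, since they held fewer than 10 counts in the DKO libraries together. In this fit 7 of the 10 were called lower in the libraries labelled DKO, where 1.88% of all rows tested and 1.82% of rows of like mean were called lower (2.9% of all rows in either direction and 1.02% higher). This contrast was known when the genes were listed, and nothing is read from that comparison. The adjusted p was 1.29e-04 for Cd8a, the lowest of the 10, and 0.0451 for Cd3d, the highest among those called, while Cd3e, Cd5 and Cd247 had values of 0.0762, 0.0960 and 0.107. The median log2 fold change of the 10 genes was -3.21, or -3.01 with Cd8a set at the limit of 3 counts per DKO library. The median of all rows was 0.00. Which of the 10 were called varied with the tool and with the libraries kept. With edgeR's quasi-likelihood test and with limma-voom 0 of the 10 were called, with 10 and 8 of them at an unadjusted p under 0.05, and these tools called 5 and 4 rows of the whole table lower (0.0269% and 0.0215%). Without the library labelled WT 1 only Cd8a was called, as without WT 5 and DKO 1 together, and without WT 4 all 10 were. Without WT 5, DKO 4 or DKO 5 in turn, Cd8a and Lck were called, and without DKO 1 also Cd3g and Cd4. With total counts as size factors 7 of the 10 were called, beside 7.58% of all rows called lower. The fold change of every gene stayed negative in all 153 fits of a gene under an alternative.

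T cell genes outside the 10 were described from a list of companions by role, 65 entries that matched 61 rows, of which 54 were tested. Of these 54, 11 were lower in the libraries labelled DKO at an adjusted p under 0.05 and 0 were higher, where the share of all rows called lower was 1.88%. The log2 fold change was negative for 50 of the 54, against 49.8% of all rows, and its median was -1.46. Some of the 54 passed the filter of 10 summed counts only through the libraries labelled WT, which favours a negative sign. Among them were Themis and Ubash3a, with 2 and 5 counts over the DKO libraries together. With edgeR and with limma-voom 0 of the 54 were called, although 37 and 30 had an unadjusted p under 0.05. Without the library labelled WT 1 or DKO 4 the count was also 0 (11 and 23 at an unadjusted p under 0.05), without WT 5 or DKO 5 it was 1, without WT 5 and DKO 1 together 2, and without WT 4 it was 18. These entries were chosen by function with earlier results of the same libraries known.

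Receptor-proximal signalling held most of the companions called lower, 7 of 15 tested, and 15 of the 15 had a negative log2 fold change. Themis, a T-lineage adaptor needed for thymic selection, had 51, 5 and 26 counts under the WT label and 1, 0 and 1 under the DKO label (log2 fold change -5.23, SE 1.28, DESeq2 adjusted p = 0.00423). Ubash3a, a phosphatase-like suppressor of receptor signalling, had 40, 4 and 15 counts against 2, 1 and 2 (-3.44, SE 1.03, adjusted p = 0.0322). Both had WT 1 highest and WT 4 lowest of the WT libraries, like the 10 genes and like Skap1, Ptpn22, Lcp2, Prkcq and Fyb below. The adaptor Skap1, with 60, 22 and 45 counts against 10, 11 and 9, fell by 1.95 on the log2 scale (SE 0.52, adjusted p = 0.0119). Ptpn22, a phosphatase that acts on Lck and is shared with other leukocytes, had 123, 56 and 103 counts against 38, 23 and 27 and fell by 1.56 (SE 0.36, adjusted p = 0.00250). For Skap1 and Ptpn22 the groups did not overlap. The adaptor Lcp2 fell by 1.49 (SE 0.45, adjusted p = 0.0317) with 152, 42 and 113 counts against 51, 33 and 18, so that DKO 1 lay above WT 4, and Prkcq, the protein kinase C theta of the T cell synapse, fell by 1.48 (SE 0.47, adjusted p = 0.0475) with 68, 25 and 59 counts against 22, 14 and 14. Fyb, the most abundant of this role, had 231, 114 and 202 counts against 123, 94 and 62 with an adjusted p of 0.0655.

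Of the homing and residency receptors 3 of 10 were called. Il7r, the interleukin-7 receptor chain on which naive and memory T cells depend, had 89, 23 and 56 counts under the WT label and 16, 6 and 7 under the DKO label (log2 fold change -2.43, SE 0.57, adjusted p = 0.00250). Cxcr6, a chemokine receptor of resident memory T cells, had 83, 16 and 39 counts against 11, 9 and 4 (-2.43, SE 0.64, adjusted p = 0.00955). Both kept the groups apart. S1pr1, the receptor for exit from tissue that endothelium also uses, had 118 to 167 counts against 87 to 100 (-0.48, adjusted p = 0.274). Itga1, the alpha-1 integrin of resident T cells and of much stroma, had 1038 to 1139 counts against 847 to 1087 (0.01, adjusted p = 0.984), far above any count of the 10 genes.

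Among cytotoxic genes 1 of 7 tested was called, Ctsw, a protease of killer lymphocytes, with 93, 43 and 59 counts under the WT label against 34, 20 and 19 under the DKO label (log2 fold change -1.31, SE 0.41, adjusted p = 0.0426). Gzmb, the protease granzyme B, had 28, 17 and 31 counts against 17, 21 and 11 (-0.50, adjusted p = 0.774) and the groups overlapped. The chemokine Ccl5 had 34, 19 and 36 counts against 15, 12 and 1 (-1.58, adjusted p = 0.184). None of the other roles had a called gene. Of the costimulatory and adhesion receptors, 8 of 8 tested had a negative log2 fold change, among them Cd2 (62, 17 and 19 counts against 13, 4 and 2, adjusted p = 0.0513) and the sialophorin gene Spn (141, 34 and 93 against 41, 31 and 27, adjusted p = 0.0687). Cd27 stood out in this role, with 45, 34 and 32 counts against 35, 24 and 37 and a log2 fold change of -0.08 (adjusted p = 0.973).

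The 11 transcription factors had log2 fold changes from -3.47 to 0.18 with a median of -1.05. Their most abundant members, Zbtb7b, the CD4 lineage factor ThPOK, and Satb1, had 652 to 1300 counts in every library, far more than any of the 10 T cell genes, with log2 fold changes of 0.18 and 0.16 (adjusted p = 0.389 and 0.683). The positive signs of Zbtb7b, Satb1, Lef1 and Itga1 turned negative when total counts served as size factors, a scaling that shifted the median of all rows to -0.23. The antigen receptor constant regions other than those of the beta chain were barely counted. Trac, the alpha constant region, had 14, 1 and 9 counts against 0, 2 and 0 and received no adjusted p, and no gamma constant region exceeded 4 counts in a library (Tcrg-C4 had 3, 3 and 2 against 1, 2 and 0).

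**Figure D4:**
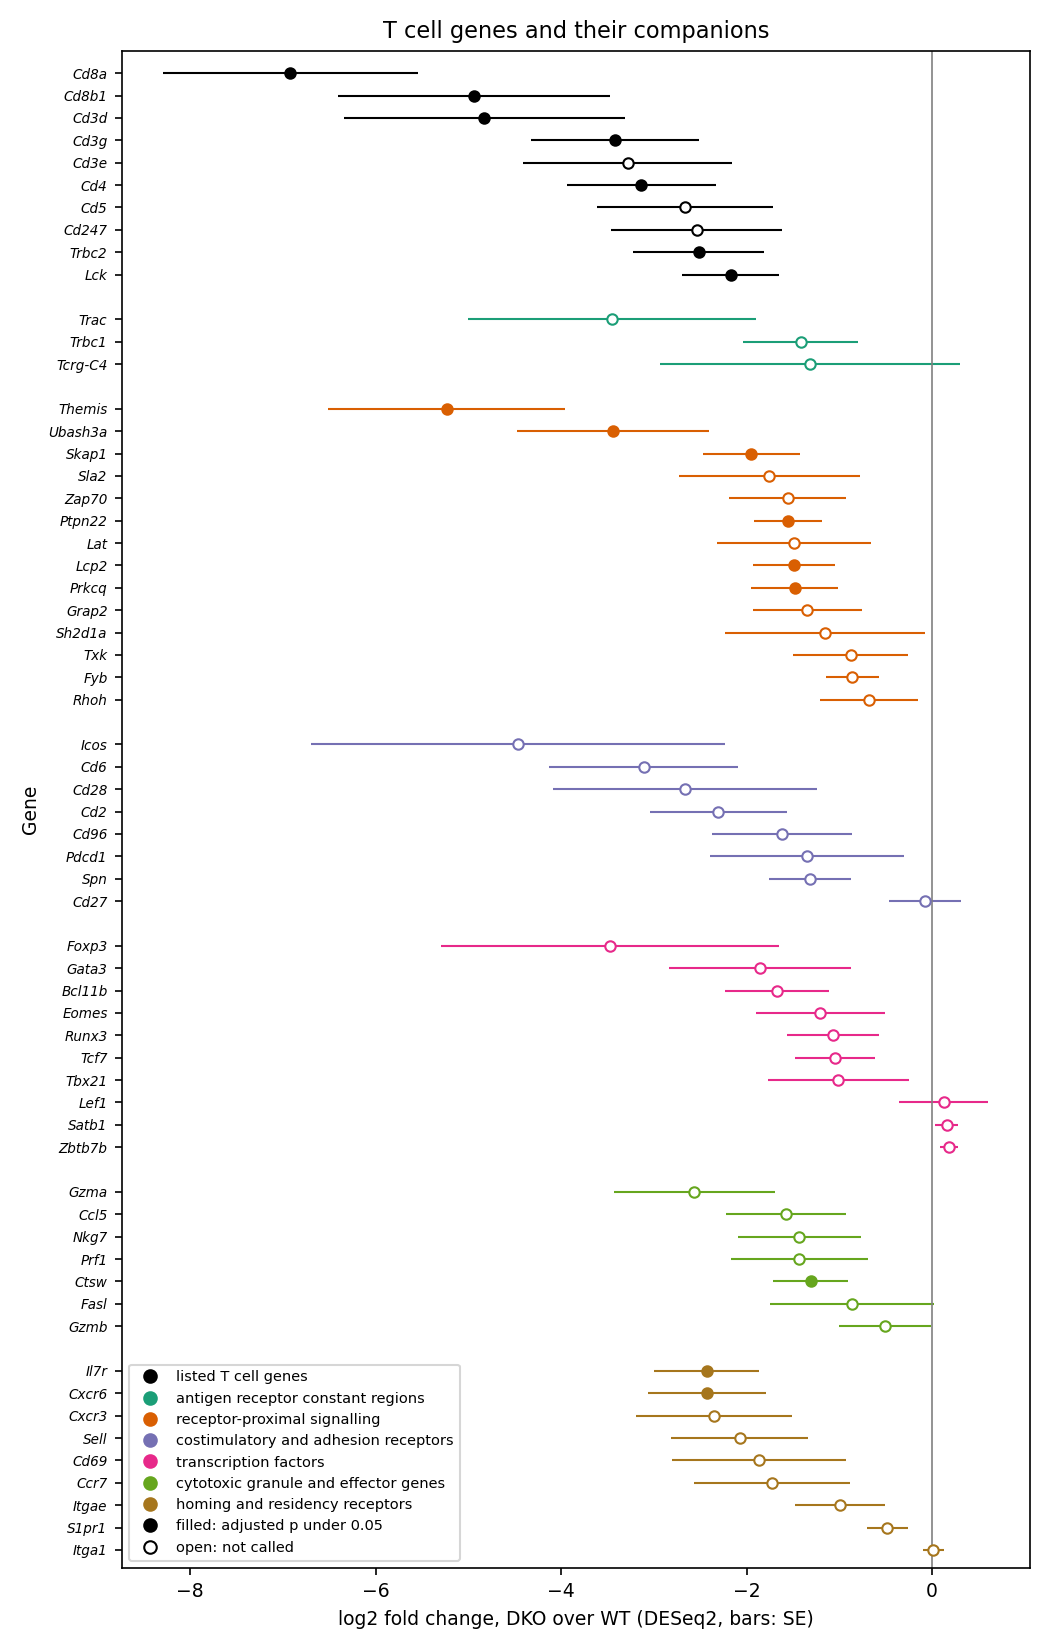
Points give DESeq2 log2 fold changes, DKO over WT, with bars of 1 SE, for the 10 T cell genes (black) and 51 of the 54 companions tested, grouped by role; filled points have an adjusted p under 0.05. The 10 genes lie between -6.92 and -2.17, and Zbtb7b, Satb1, Lef1 and Itga1 lie just above 0 on this scaling.

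Other immune cell types were measured with the same libraries, by marker lists whose part in the T cell result was not tested. The counts of markers below stand beside the shares of all rows tested, of which 1.88% were called lower and 49.8% had a negative log2 fold change. Pan-leukocyte markers, 6 rows led by Ptprc (CD45) and Laptm5, summed to 1189 to 2753 normalized counts under the WT label and 630 to 1055 under the DKO label, a ratio of the means of 2.29. The log2 fold change was negative for 6 of the 6, and 4 were called lower, namely Laptm5, Cd52, Cd53 and Cd37. Ptprc itself had 1515, 631 and 1124 counts against 573, 342 and 250 (log2 fold change -1.39, adjusted p = 0.0541). Per 100 normalized counts of these leukocyte markers, the 10 T cell genes held 14.7, 7.32 and 11.1 under the WT label and 3.06, 3.47 and 4.40 under the DKO label. These values averaged 11.1 ± 3.71 against 3.64 ± 0.685 (SD, n = 3), without overlap. Since the 10 genes were listed with their counts known, nothing is read from this difference.

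Natural killer cells share Lck and Cd247 with T cells. Their 6 markers summed to 157 to 338 normalized counts under the WT label and 88.8 to 139 under the DKO label. All 6 had a negative log2 fold change, and 1 was called lower, the activating receptor Klrk1 (99, 45 and 86 counts against 42, 22 and 25, adjusted p = 0.0390). Ncr1, the defining receptor NKp46, had 73, 24 and 45 counts against 33, 15 and 10 (adjusted p = 0.228). Per 100 normalized counts of these markers the T cell genes held 119.9, 55.6 and 83.0 under the WT label and 23.1, 25.0 and 31.2 under the DKO label. They did not overlap here either, and again nothing is read from this.

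B cell markers, 9 rows of which 8 were tested, summed to 34.2 to 301 normalized counts under the WT label and 14.6 to 23.1 under the DKO label. Their ratio of means was 7.25, and WT 1 held most of the WT counts, so that the ratio was 2.78 without that library. All 8 tested had a negative log2 fold change. Of the 8, 2 were called lower, Cd22 (70, 6 and 25 counts against 5, 3 and 1, adjusted p = 0.00871) and Ms4a1 (61, 1 and 6 against 0, 1 and 1, adjusted p = 0.0295), while Cd79b had 41, 7 and 21 against 7, 4 and 3 (adjusted p = 0.0909). Plasma cell markers, led by Igha and Igkc, overlapped between the groups at 5256 to 12240 against 1754 to 9278. All 6 had a negative log2 fold change, and 1 was called lower, the IgM constant region Ighm. It had 2166, 198 and 1790 counts against 80, 66 and 63, without overlap (log2 fold change -4.18, DESeq2 adjusted p = 4.20e-04). Macrophage markers, led by Csf1r and C1qa, stood at 1951 to 3205 against 1418 to 1920. The log2 fold change was negative for 8 of the 8, and 4 were called lower, C1qa, C1qb, Emr1 and Mrc1. Dendritic cell markers, led by Itgax and Zbtb46, overlapped at 342 to 608 against 201 to 374, and 7 of 7 had a negative log2 fold change. Of the 7, 0 were called by DESeq2, edgeR or limma-voom, with 4, 4 and 2 of them at an unadjusted p under 0.05. Neither edgeR nor limma-voom called a row in any of these marker lists (at an unadjusted p under 0.05, 5 and 3 of 6 for natural killer cells, 6 and 2 of 8 for B cells, 1 and 1 of 6 for plasma cells, 6 and 6 of 8 for macrophages, and 6 and 6 of 6 for the pan-leukocyte list).

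Lymph node stroma was included because lymph nodes lie beside the gland. Its 6 markers summed to 13.7 to 53.4 normalized counts under the WT label and 6.92 to 19.9 under the DKO label, with Ccl21a at 19, 9 and 32 counts against 15, 14 and 6 and Cxcl13 at 24, 2 and 9 against 4, 2 and 0 (adjusted p = 0.764 and 0.286). Only these 2 rows were tested, and 0 were called by DESeq2, edgeR or limma-voom, with 1, 1 and 0 at an unadjusted p under 0.05. Glycam1, which marks the high endothelial venules of lymph nodes, had 1 count in WT 1 and 0 in the other 5 libraries. In each of these lists of other immune and lymph node markers WT 1 held the highest WT sum and WT 4 the lowest, as it did for the 10 T cell genes. Without WT 1, 0 natural killer, 0 B cell, 1 plasma cell, 1 macrophage and 1 pan-leukocyte marker were called. The same lists were then read without the libraries labelled WT 5 and DKO 1. Of the immune markers called over all 6 libraries, 1 remained, the macrophage receptor Mrc1, while 0 of the pan-leukocyte, natural killer, B cell, plasma cell, dendritic cell and lymph node markers were called (6, 3, 3, 1, 2 and 0 at an unadjusted p under 0.05 in DESeq2). Ratios of the means of WT over DKO were then 2.68 for pan-leukocyte markers, 2.40 for natural killer cells, 8.89 for B cells, 2.59 for plasma cells, 1.64 for macrophages, 2.05 for dendritic cells and 2.84 for lymph node stroma, beside 8.65 for the 10 T cell genes. Plasma cell and dendritic cell sums, which overlapped over all 6 libraries, did not overlap between the 4 libraries kept (5256 to 12240 against 1754 to 5011, and 342 to 608 against 201 to 263).

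**Figure D5:**
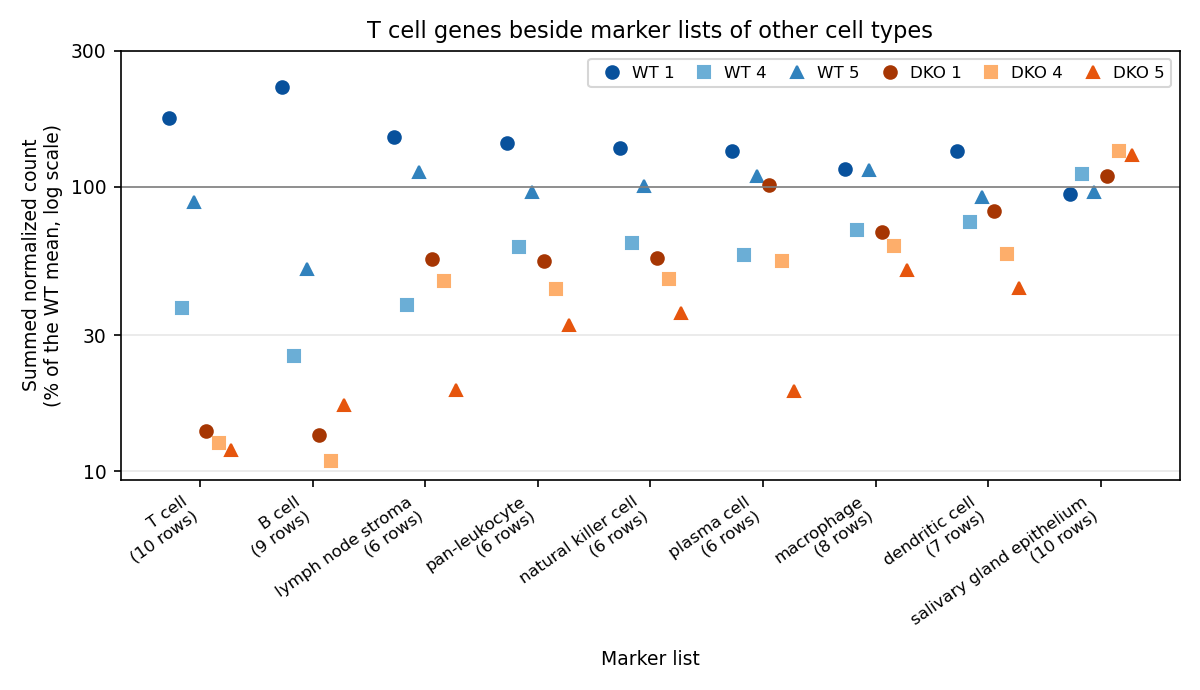
Points give the summed normalized count of each marker list in each library as a percentage of its mean in the 3 libraries labelled WT (log scale). The libraries labelled DKO lie lowest for the T cell and B cell lists, where the ratios of means are 7.83 and 7.25 (4.93 and 2.78 without WT 1), and on both sides of the WT mean for the plasma cell list, while those for salivary gland epithelium lie above it.

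The rows whose pattern was most like that of the T cell genes were sought among 13321 rows with a mean of at least 20 normalized counts, by Pearson correlation over the 6 libraries with the mean profile of the 6 listed genes whose mean was at least 10. The 8 highest were Cxcl9, 4632427E13Rik, H2-Aa, Col4a1, H2-D1, Ltb, Zfp62 and Tm6sf1, with r from 0.994 to 0.998, and 600 rows (4.50%) had an r of at least 0.9. These values describe 6 libraries that share the same group difference and the same order within WT. Cxcl9, a chemokine that attracts T cells through Cxcr3, had 144, 15 and 70 counts under the WT label and 5, 4 and 3 under the DKO label (log2 fold change -4.14, SE 0.73). Ltb, a lymphotoxin made by lymphocytes, had 68, 21 and 40 counts against 9, 7 and 5 (-2.51, SE 0.59). H2-Aa, a chain of MHC class II, and H2-D1, an MHC class I heavy chain, held the same order of WT libraries at far higher counts, 816 to 3370 and 3055 to 9012. Col4a1, a basement membrane collagen, and the zinc finger gene Zfp62 had log2 fold changes of only -0.24 and -0.28, and the correlation does not measure the size of a difference.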

How the data were processed

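RNA of 6 SMGs was measured, 3 labelled WT and 3 labelled DKO. Raw counts by gene symbol were deposited by the authors as an unfiltered and a filtered table, beside a table of scaled values. The unfiltered counts were used, and the other 2 tables were not, since they derive from the same counts. Libraries were unstranded Nextera XT on a HiSeq2500. The submitters' processing notes name STAR 2.5.2a and mouse and human genome builds without roles, and the counting tool and annotation are not given in the sources used here. Coordinates are those of GENCODE M21 on GRCm38 for the same symbol.

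Rows with at least 10 summed counts (18606) were tested with DESeq2 1.42.0 in R 4.3.3, as the study's methods name it (two-sided Wald test, median-of-ratios size factors of 0.867 to 1.12, default filters, Benjamini-Hochberg over all rows, threshold 0.05). An adjusted p was not given for 2556 rows. Between libraries of a group, chi-square per degree of freedom was 16.8 to 43.4, so each library counted as 1 replicate. Separate animals are not stated per library, so p-values measure the spread between these samples, which may be technical. With 3 against 3, a permutation test of a single value cannot go below 0.1 and none was made. Alternatives were edgeR 4.0.16 and limma 3.58.1 (voom), TMM or total counts as size factors, other count filters, filters off, a block for the replicate number, and fits that left out 1 library. The DESeq2, edgeR and limma-voom fits were also run on simulated data, and a pass was required of DESeq2 alone. Only rows with a higher mean than any of the 10 genes were changed there, so that test does not cover genes as rare as these. Intervals are exact binomial or Poisson at 95% and cover counting error only, as does the limit of 3 counts for a count of 0.

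The 10 genes, the companion and marker lists, and the rule for named genes were chosen with earlier results of these data known. Named are the 10 genes, the targeted genes, the 3 most abundant companions of each role and any called, the 2 most abundant rows of each marker list, and the 8 rows most correlated with the T cell profile on log2(normalized count + 1). Muc19, Lef1, Glycam1 and the called markers were named after their values were seen. Some genes that fall under this rule are not reported here. Trdc matched no row, and Igj and Emr1 stand for Jchain and Adgre1.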

Additional observations from a re-analysis of the deposited data

How the results depend on the processing

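Of the 10 T cell genes 7 were called in the DESeq2 fit, 0 with edgeR's quasi-likelihood test and 0 with limma-voom (10 and 8 at an unadjusted p under 0.05), 2 with at least 10 counts in at least 3 libraries, where only 3 of the genes were tested, and 1 to 10 with 1 library left out. Companions called were 11, against 0 with edgeR and 0 with limma-voom (37 and 30 at an unadjusted p under 0.05), 20 with total counts as size factors and 0 to 18 with 1 library left out. Over all rows 539 were called, against 10 with edgeR, 7 with limma-voom, 1472 with total counts as size factors (95.8% of them lower, against 64.9%) and 149 to 817 with 1 library left out (151 without WT 1, 817 without WT 4, 149 without WT 5, 170 without DKO 4 and 166 without DKO 5). Leaving out WT 5 and DKO 1 together, an alternative chosen after seeing the data, gave 183 rows, 1 of the 10 genes (Cd8a) and 2 companions (Cd2 and Il7r). Markers called in the other lists ranged with 1 library left out from 0 to 6 for macrophages and for pan-leukocyte markers, 0 to 4 for B cells, 0 to 2 for dendritic cells, 0 to 1 for natural killer cells and 1 to 4 for salivary epithelium. The causes were not tested, beyond the smaller numbers of samples or genes. The median log2 fold change of the 10 genes ranged from -3.87 to -2.46 over all alternatives, within the spread between libraries (SD 0.93 on the log2 scale).

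Of 153 fold changes of a gene under an alternative all were negative, and 26 had no adjusted p. Of the other 127, 86 stayed on the same side of the threshold, 36 lost the call and 5 gained it. Cd8a was called in 13 of 16 alternatives, with adjusted p from 2.76e-05 to 0.158 (0.118 with edgeR, 0.158 with limma-voom). Lck was called in 11 of 16, with adjusted p from 5.89e-04 to 0.200.

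Correlations of deviations between same-numbered libraries were -0.13, -0.02 and -0.26, and 0 of 6 libraries correlated best with the library of its own number. The main fit therefore held no pairing. With 3 libraries per group, whose other differences can outweigh a pairing, this check cannot exclude that the numbers mark litters or batches. With the replicate number as a block, 343 rows, 2 of the 10 genes (Cd4 and Cd8a, with 4 genes given no adjusted p) and 4 companions, Themis, Ptpn22 and Il7r among them, were called. With at most 74 counts of any of the 10 genes in a library, depth limits the share of each gene, and a gene at 0 may hold up to 3 counts.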

Other observations

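Smgc, a secretory product of the SMG that shares its locus with Muc19, varied among the libraries of both groups. In the order 1, 4 and 5 it had 295383, 25147 and 207781 counts under the WT label and 38539, 112573 and 15983 under the DKO label (log2 fold change -1.54, SE 1.02, DESeq2 adjusted p = 0.571). Among the WT libraries its order was that of the T cell sum, 410, 89 and 230 counts. In the libraries labelled DKO it ranged from 15983 to 112573 while the T cell sum stayed between 24 and 34.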
